A study of Mus musculus with 8 samples.

Results

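Retinoid metabolism and receptor genes were followed in primary epidermal cells from newborn mouse pups. They comprised 9 genes that make, bind, clear or sense retinoic acid, taken by symbol from a table of 26202 genes: Stra6, Rdh10, Dhrs9, Crabp2, Cyp26a1, Cyp26b1, Rara, Rarb and Rarg. All 9 were found. RNA was sequenced from polyadenylated transcripts in 8 libraries, 2 in each of 4 groups: Dlx3 knockout cells given AdDlx3, Dlx3 wild-type cells given AdDlx3, Dlx3 knockout cells given AdGFP and Dlx3 wild-type cells given AdGFP. AdDlx3 is an adenovirus carrying Dlx3, a homeobox transcription factor of the outer epidermis and hair follicle. AdGFP is an adenovirus carrying green fluorescent protein and served as the control virus, so the cells of all 8 libraries were given an adenovirus, 24 hours after plating. The pups were newborn to 1 day old and from transgenic mice. How the knockout was made, whether it was limited to some cells, and whether pups were pooled could not be read from the labels.

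Retinol enters cells partly through the receptor Stra6 and is oxidised to retinal by short-chain dehydrogenases, then to retinoic acid by the retinal dehydrogenases of the Aldh1a family. Crabp2 hands retinoic acid to nuclear receptors, which bind DNA as pairs of a retinoic acid receptor (Rara, Rarb or Rarg) and a retinoid X receptor. Cyp26 enzymes destroy retinoic acid, and Cyp26a1 and Rarb are themselves classic retinoic acid target genes. In epidermis, retinoic acid is known for holding back terminal differentiation of keratinocytes.

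Retinoic acid is known to control Cyp26a1 and Rarb through repeated hexamers near their starts, so the reference promoters of these genes are shown. RefSeq windows (GRCm38.p6) running from 250 bases before to 50 bases after a transcription start were found for 7 of the 9 genes, 14 windows in all. They were searched on both strands for direct repeats, spaced by 5 or by 2 bases, of the receptor hexamers AGGTCA and AGTTCA, each also taken with G as its opening letter and in any pairing. A repeat spaced by 5 was found in 1 window of Cyp26a1, on the strand opposite to the gene, 32 to 16 bases before its start, and in 1 window of Rarb, on the gene's strand, 53 to 37 bases before its start. Among all 32851 windows, 32 (0.0974%) held a repeat spaced by 5 and 88 (0.268%) a repeat spaced by 2, and no window of the 9 genes held a repeat spaced by 2. In the elements below the hexamers are in capitals, and each is read on its own strand.
Cyp26a1 element, chr19:37697776-37697792: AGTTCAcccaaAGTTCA
Rarb element, chr14:16575513-16575529: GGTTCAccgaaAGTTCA
The same elements are in capitals in the windows, which are printed on the strand of each gene.
Cyp26a1 promoter, chr19:37697558-37697857 (+ strand): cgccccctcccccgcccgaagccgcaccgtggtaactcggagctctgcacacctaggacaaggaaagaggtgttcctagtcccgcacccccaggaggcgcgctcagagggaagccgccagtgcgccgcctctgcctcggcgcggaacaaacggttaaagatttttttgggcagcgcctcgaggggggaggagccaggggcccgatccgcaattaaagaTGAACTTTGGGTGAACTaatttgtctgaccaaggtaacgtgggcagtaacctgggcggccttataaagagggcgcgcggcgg
Rarb promoter, chr14:16575427-16575726 (- strand): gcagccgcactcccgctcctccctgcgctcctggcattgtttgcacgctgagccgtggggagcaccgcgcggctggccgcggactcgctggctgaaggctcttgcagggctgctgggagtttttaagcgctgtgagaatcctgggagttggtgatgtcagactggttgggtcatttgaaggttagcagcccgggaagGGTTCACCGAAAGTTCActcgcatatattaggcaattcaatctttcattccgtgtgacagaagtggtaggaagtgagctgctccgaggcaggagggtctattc
The letters TAATTA, a palindrome and the core bound by many homeodomain proteins, were in 1738 windows (5.29%) and in none of these 14, and a match or its absence says nothing on whether a factor binds there.

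Values are RPKM, read numbers corrected for gene length and library size by the authors, so levels can be set side by side between genes. Libraries had 73688944 to 124857742 alignments, and the deposited sample sheet placed replicate 1 of each group in batch A and replicate 2 in batch B. The virus label was matched by the level of Dlx3 in all 8 libraries, while the genotype label could not be checked in AdDlx3 libraries, where the virus supplies Dlx3. Dlx3 stood at 402 and 539 RPKM in knockout and 237 and 782 RPKM in wild-type AdDlx3 libraries, against 0.656 and 0.558 RPKM in knockout and 1.71 and 1.77 RPKM in wild-type AdGFP libraries. The summed level of 8 keratinocyte markers was 965 to 8604 RPKM under AdDlx3 and 11524 to 17451 RPKM under AdGFP. Fibroblast (7 genes, 9.96 to 40.4 against 7.76 to 23.4 RPKM) and melanocyte markers (7 genes, 165 to 414 against 223 to 382 RPKM) were present under both viruses. Summed immune cell (5 genes), endothelial (4) and sebocyte (3) markers were at most 2.46, 0.759 and 0.345 RPKM under AdDlx3 and at most 2.08, 2.36 and 0.262 RPKM under AdGFP, and no marker was at 0 in all 8 libraries. In bulk RNA, fewer cells of a type and less RNA per cell cannot be told apart. The part of cell makeup in the results below was not tested.

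The 9 genes covered a wide range of levels, and their order differed between the viruses. Under AdDlx3, Rarg was the highest, at a mean of 32.0 RPKM, followed by Cyp26b1 (8.29), Rara (6.47), Rdh10 (4.56), Crabp2 (1.84), Dhrs9 (0.554), Cyp26a1 (0.325), Rarb (0.267) and Stra6 (0.00808). Under AdGFP, Rarg averaged 45.2 RPKM, followed by Crabp2 (21.3), Cyp26b1 (7.54), Rara (5.14), Rdh10 (3.97), Dhrs9 (2.43), Rarb (0.298) and Stra6 (0.0181), with Cyp26a1 listed at 0. Within every one of the 8 libraries Rarg was above Crabp2 and Rara above Rdh10. Cyp26b1 was above Rara in 2 of the 4 AdDlx3 and 2 of the 4 AdGFP libraries, so that pair had no fixed order. Rarg, Crabp2, Cyp26b1, Rara, Rdh10 and Dhrs9 reached 1 RPKM in at least 2 libraries, and these 6 genes were tested with limma on log2(RPKM + 0.5) among 12090 genes, with Benjamini-Hochberg adjustment over all of them and a threshold of 0.05. Dhrs9 reached 1 RPKM only in the 4 AdGFP libraries, and so entered the test through the group in which it was high. Rarb, Cyp26a1 and Stra6 did not enter it.

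**Figure D1:**
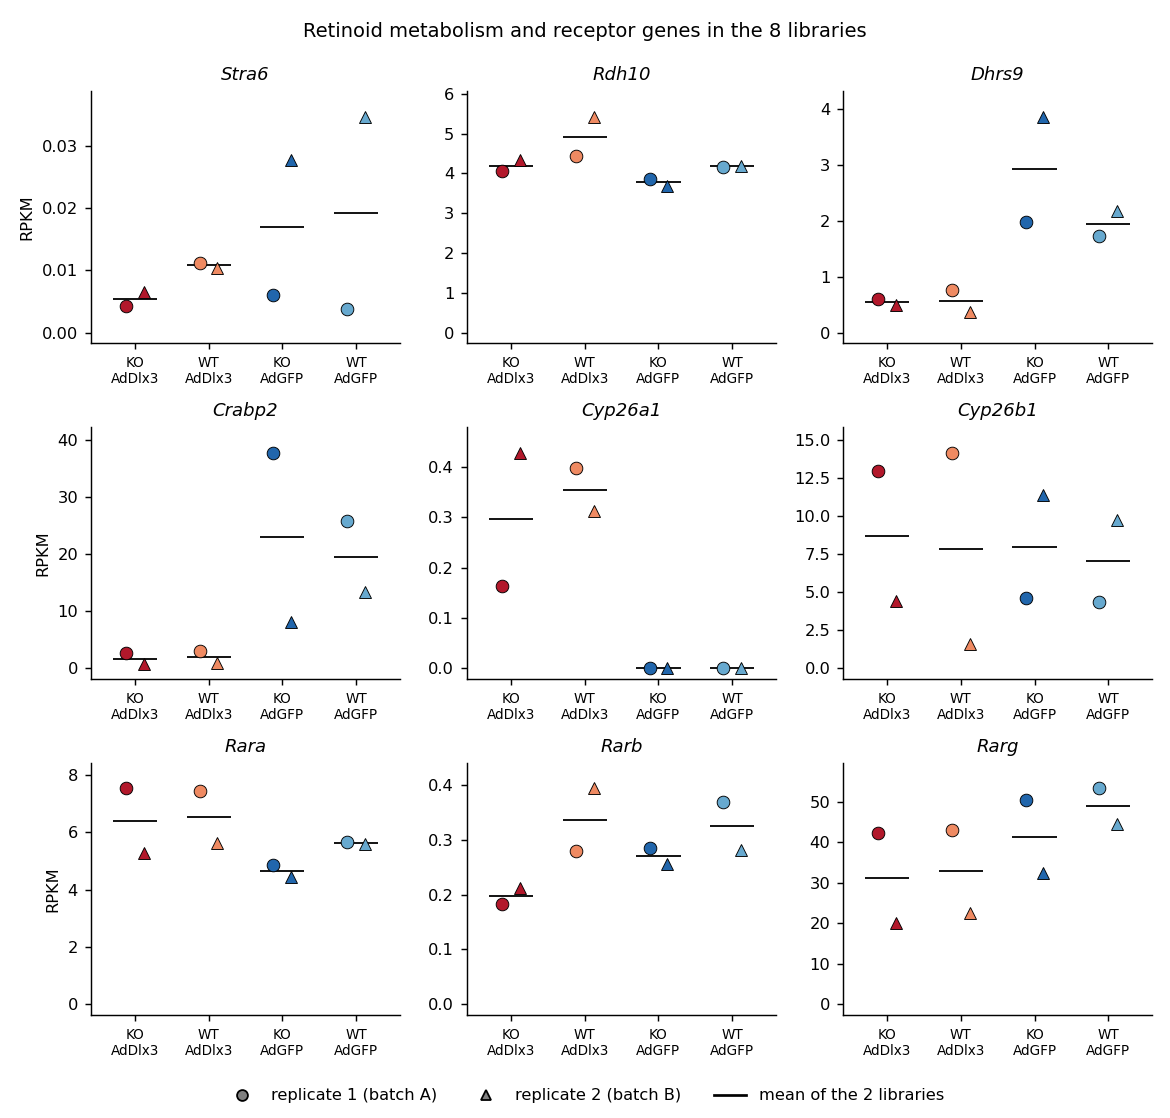
RPKM of the 9 genes in the 8 libraries, by group; circles are batch A, triangles batch B and lines the mean of the 2 libraries. Crabp2 and Dhrs9 were lower in all 4 AdDlx3 than in all 4 AdGFP libraries, Cyp26a1 was listed at 0 in all AdGFP libraries, and Cyp26b1 moved in opposite directions in the batches.

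The main comparison asked how the genes differed between cells given AdDlx3 and cells given AdGFP, over both genotypes. Crabp2 and Dhrs9 fell, and none of the 6 genes tested rose. That is 2 of 6 called, beside 29.2% of all 12090 genes (5.74% fell and 23.4% rose). With the replicate block, which takes the batch as a term, Rarg fell too, making 3 of 6, beside 10.9% of all genes falling and 38.0% rising. After median-of-ratios scaling 10.4% of 12028 genes fell and 10.6% rose. On the scale of RPKM + 0.5, the retinoic acid carrier Crabp2 fell 8.89-fold and the retinol-oxidising enzyme Dhrs9 2.71-fold. The size depends on the constant added. With 0.1 the log2 changes were -3.47 for Crabp2 and -1.92 for Dhrs9, and with 1 they were -2.86 and -1.11. The other retinol dehydrogenase, Rdh10, and the receptors Rara and Rarg did not pass the threshold. Cyp26a1, the retinoic acid hydroxylase best known as a retinoic acid target, was above 0 in the 4 AdDlx3 libraries and listed at 0 in the 4 AdGFP libraries. The keratinocyte marker sum was also lower in every AdDlx3 library, as given above. Of its 8 genes, Krt5, Krt14 and Itgb4 were lower in every AdDlx3 library and 5 overlapped. Of all genes tested, 6.27% were lower and 29.6% higher in every AdDlx3 library. Among the 8 markers, Itgb4 fell by 0.87 ± 0.22 in log2 units (limma adjusted p = 0.0218, with SE) and Itga6 rose by 0.55 ± 0.14 (adjusted p = 0.0226). The other 6 markers, Krt5 (-2.97 ± 0.98, adjusted p = 0.0537) and Krt14 (-2.62 ± 0.85, adjusted p = 0.0523) among them, did not pass. The median log2 change of all genes tested was 0.22, and -0.0045 after median-of-ratios scaling, so a change of a gene without scaling is to be read against 0.22.

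Among the genes of uptake and oxidation, Stra6 (chr9:58063788-58153996, + strand) is the cell-surface receptor for the retinol carrier of blood. It stood at 0.00420 and 0.00654 RPKM in knockout and 0.0112 and 0.0104 RPKM in wild-type AdDlx3 libraries. In AdGFP libraries it stood at 0.00611 and 0.0278 RPKM in knockout and 0.00384 and 0.0346 RPKM in wild-type cells. The groups overlapped, all 8 values lay close to 0, and an exact two-sided permutation test of 4 against 4 libraries gave p = 0.4.

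Rdh10 (chr1:16105774-16133734, + strand) carries out the first oxidation step, retinol to retinal, in the mouse embryo. It stood at 4.05 and 4.34 RPKM in knockout and 4.43 and 5.42 RPKM in wild-type AdDlx3 libraries. Under AdGFP it stood at 3.85 and 3.69 RPKM in knockout and 4.16 and 4.19 RPKM in wild-type cells. The groups overlapped, and its standard error was the smallest of the 6 genes tested. The log2 change of 0.17 ± 0.11 (SE; limma adjusted p = 0.285) became -0.04 after median-of-ratios scaling.

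Dhrs9 (chr2:69380445-69404533, + strand) encodes another short-chain dehydrogenase, known from human cells to oxidise retinol. It stood at 0.591 and 0.494 RPKM in knockout and 0.762 and 0.367 RPKM in wild-type AdDlx3 libraries. In AdGFP libraries it stood at 1.98 and 3.85 RPKM in knockout and 1.72 and 2.17 RPKM in wild-type cells. All 4 AdDlx3 libraries lay below all 4 AdGFP libraries, with the highest level in the knockout AdGFP library of batch B. The means were 0.554 ± 0.166 RPKM under AdDlx3 and 2.43 ± 0.967 RPKM under AdGFP (SD, n = 4 each). The log2 change was -1.44 ± 0.23 (SE; limma adjusted p = 0.00420, and 0.0131 with no filter on low values), which was the 275th largest fall among the 12090 genes.

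Crabp2 (chr3:87948666-87953376, + strand) binds retinoic acid in the cytoplasm and delivers it to receptors in the nucleus. It stood at 2.67 and 0.741 RPKM in knockout and 3.08 and 0.882 RPKM in wild-type AdDlx3 libraries. Under AdGFP it stood at 37.8 and 8.17 RPKM in knockout and 25.8 and 13.4 RPKM in wild-type cells. Within every group the batch B library was the lower one, and yet the lowest AdGFP library was above the highest AdDlx3 library. The means were 1.84 ± 1.20 RPKM under AdDlx3 and 21.3 ± 13.3 RPKM under AdGFP (SD, n = 4 each). The log2 change was -3.15 ± 0.54 (SE; limma adjusted p = 0.00520), the 15th largest fall of the 12090 genes. The fall was of like size in each batch, at -2.80 in knockout and -3.33 in wild-type cells of batch B and -3.60 in knockout and -2.88 in wild-type cells of batch A, on the log2 scale. The difference of the response between batches (B minus A) was 0.17 ± 0.33 (SE; limma adjusted p = 0.745), and it was -0.14 with a pseudocount of 0.1. The calls of both Crabp2 and Dhrs9 held without each library in turn (adjusted p 0.00387 to 0.0191 by limma).

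Crabp1, the sister gene of Crabp2, gave the contrast of a binding protein that stayed within its spread. Its log2 change was -0.20 ± 0.24 (SE; limma adjusted p = 0.541). Within a library, Crabp2 was 0.0703 to 0.369 times the level of Crabp1 under AdDlx3 and 0.997 to 2.97 times under AdGFP. The ratio separated the viruses in all 8 libraries and was given no test.

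The genes whose log2 levels followed Crabp2 most closely over the 8 libraries, among all tested, were H19 (Pearson r = 0.999), Septin8 (0.998), Mall (0.996), Tmem238l (0.994) and Krt80 (0.993). H19, an imprinted noncoding RNA, stood at 59.4, 33.6, 67.5 and 37.0 RPKM in the AdDlx3 libraries and at 319, 123, 267 and 185 RPKM in the AdGFP libraries, in the order of knockout and wild type, batch A before batch B in each. Krt80, a keratin of differentiating epithelia, stood at 16.8 to 36.2 RPKM under AdDlx3 and 68.6 to 179 RPKM under AdGFP. These genes shared with Crabp2 both the lower level under AdDlx3 and, within AdGFP, the lower level in batch B. The correlations describe 8 libraries that share 2 viruses and 2 batches, and carry no test.

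Cyp26a1 (chr19:37697798-37701536, + strand) clears retinoic acid by hydroxylation. It stood at 0.163 and 0.428 RPKM in knockout and 0.397 and 0.311 RPKM in wild-type AdDlx3 libraries. It was listed at 0 in each of the 4 AdGFP libraries. The groups did not overlap, and the exact two-sided permutation test gave p = 0.0286, the smallest that 4 against 4 libraries allow. That test took no account of genotype or batch. With any 1 library left out its p was 0.0571, the smallest that 4 against 3 allow. The limma fit without a filter on low values gave an adjusted p of 0.00886. That fit called 3934 of the 23265 genes above 0 in at least 1 library. All levels were under 1 RPKM, and no fold change can be given against values listed at 0. Among the 23265 genes above 0 in at least 1 library, 99 (0.426%) were likewise listed at 0 in the 4 AdGFP libraries and above 0 in the 4 AdDlx3 libraries. The direction was shared with other genes of the table. Among the 11175 genes also below the filter and above 0 in some library, 14.8% were higher and 2.14% lower in every AdDlx3 library. Of the genes tested 35.9% did not overlap between the viruses, 29.6% being higher and 6.27% lower in every AdDlx3 than in every AdGFP library.

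Cyp26b1 (chr6:84571414-84593908, - strand), a second retinoic acid hydroxylase, behaved differently in the batches. In batch B it stood at 4.44 RPKM in knockout and 1.57 RPKM in wild-type AdDlx3 libraries, against 11.4 RPKM in knockout and 9.76 RPKM in wild-type AdGFP libraries. In batch A it stood at 13.0 RPKM in knockout and 14.2 RPKM in wild-type AdDlx3 libraries, against 4.61 RPKM in knockout and 4.40 RPKM in wild-type AdGFP libraries. AdDlx3 libraries were thus the lower ones in both genotypes of batch B and the higher ones in both genotypes of batch A. The log2 change over both batches was -0.15 ± 0.64 (SE; limma adjusted p = 0.879), an average over opposite responses of -1.27 in knockout and -2.31 in wild-type cells in batch B and 1.40 in knockout and 1.59 in wild-type cells in batch A. The difference of the AdDlx3 response between batches (B minus A) was -3.28 ± 0.38 (SE; limma adjusted p = 0.00135, and 0.00813 at most without each library in turn). With no filter on low values the adjusted p was 0.0679. The test between batches was added after the values were seen. With 1 library per group in each batch, its p rests on how alike the genotypes were. In that comparison 14.0% of all genes were called, 8.56% with the lower and 5.43% with the higher response in batch B, and Cyp26b1 was the 1 gene called of the 6 tested.

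The turn of direction in Cyp26b1 went with other differences between the batches. Among the 12090 genes, 1159 (9.59%) had a positive response in both genotypes of batch A and in neither of batch B. Of the 12090 genes Cyp26b1 was the only 1 (0.00827%) that was at least 1 log2 unit up in both pairs of batch A and at least 1 down in both pairs of batch B, a size chosen after its values were seen. Within AdGFP, Cyp26b1 was higher in batch B than in batch A by 1.22 log2 units in knockout and 1.07 in wild-type cells. Dlx3 was at 539 and 782 RPKM in the AdDlx3 libraries of batch B and at 402 and 237 RPKM in those of batch A, knockout before wild type. The keratinocyte marker sum under AdDlx3 was 1241 RPKM in knockout and 965 RPKM in wild-type cells of batch B and 7014 RPKM in knockout and 8604 RPKM in wild-type cells of batch A. Among these markers, the AdDlx3 response of Krt5 was lower in batch B than in batch A by a log2 difference of -3.58 ± 0.27 (SE; limma adjusted p = 0.000311). That was the largest difference among them. The others were -2.83 for Krt14, -1.46 for Trp63, -1.21 for Lamb3, -1.08 for Dsg3, -1.07 for Itgb4, -1.06 for Col17a1 and 0.21 for Itga6. Itga6 thus went the other way (limma adjusted p = 0.517). The part of the Dlx3 level and of the keratinocyte markers in the response of Cyp26b1 was not tested.

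**Figure D2:**
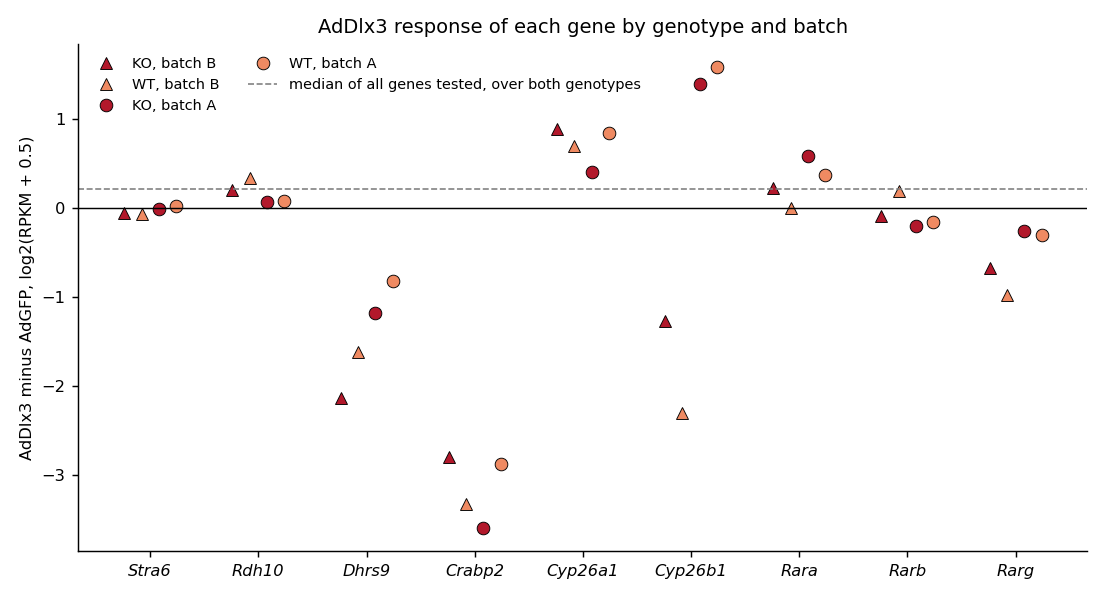
Log2(RPKM + 0.5) of the AdDlx3 library minus that of the AdGFP library of the same genotype and batch, for each of the 9 genes; triangles are batch B, circles batch A, dark symbols knockout and light symbols wild type, and the dashed line is the median of all genes tested (0.22). Crabp2 and Dhrs9 lie below 0 in all 4 pairs, and Cyp26b1 lies below 0 in batch B and above 0 in batch A.

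The receptors kept one order in every library, with Rarg above Rara and Rara above Rarb. Rarg (chr15:102234938-102257517, - strand), known as the main retinoic acid receptor of epidermis, stood at 42.2 and 20.0 RPKM in knockout and 43.2 and 22.5 RPKM in wild-type AdDlx3 libraries. In AdGFP libraries it stood at 50.4 and 32.4 RPKM in knockout and 53.3 and 44.6 RPKM in wild-type cells. AdDlx3 was the lower library in each of the 4 pairs of the same genotype and batch, although the groups overlapped. The log2 change was -0.55 ± 0.29 (SE; limma adjusted p = 0.184), and with the batch as a replicate block the adjusted p was 0.0124.

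Rara (chr11:98927818-98974942, + strand), expressed in most tissues, stood at 7.53 and 5.27 RPKM in knockout and 7.45 and 5.62 RPKM in wild-type AdDlx3 libraries. Under AdGFP it stood at 4.87 and 4.43 RPKM in knockout and 5.66 and 5.60 RPKM in wild-type cells. The groups overlapped, and the batch A AdDlx3 libraries were the highest. The log2 change of 0.30 ± 0.15 (SE; limma adjusted p = 0.175) passed the threshold, of the fits tried, only in the one with a term for the response by batch (adjusted p = 0.0187), and in wild-type cells alone its sign turned after scaling (0.19, and -0.04 scaled). Rarg was 3.80 to 5.80 times the level of Rara under AdDlx3 and 7.31 to 10.4 times under AdGFP, without overlap and with no test.

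Rarb (chr14:16430839-16819156, - strand), the receptor that retinoic acid itself is known to induce, stood at 0.183 and 0.212 RPKM in knockout and 0.279 and 0.394 RPKM in wild-type AdDlx3 libraries. In AdGFP libraries it stood at 0.286 and 0.256 RPKM in knockout and 0.370 and 0.281 RPKM in wild-type cells. The groups overlapped, and the exact two-sided permutation test gave p = 0.543. Of the pair of genes whose promoters held the spaced repeat printed above, Cyp26a1 thus differed between the viruses without overlap and Rarb did not. The Rarb window printed above lies inside the span of the gene. The RPKM of a gene does not separate transcripts from different starts.

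Within each genotype fewer genes passed. In knockout cells Dhrs9 was the 1 gene called of 6 (5.32% of all genes were called, 0.893% downward), with a log2 change of -1.66 ± 0.34 (SE; limma adjusted p = 0.0450). That call was lost without either knockout AdDlx3 library, without any 1 of the 4 AdGFP libraries (adjusted p 0.0819 to 0.184) and with no filter on low values (0.0889). Crabp2 changed by -3.20 ± 0.83 in knockout cells (adjusted p = 0.0726, and 0.00267 with the replicate block). In wild-type cells 0 of 6 genes passed (2.62% of all genes were called, 2.27% upward and 0.356% downward). An unadjusted limma p under 0.05 was seen in 2 of the 6, beside 2932 of all 12090 genes. There Crabp2 changed by -3.10 ± 0.83 (adjusted p = 0.0948, and 0.00364 with the block) and Dhrs9 by -1.22 ± 0.34 (adjusted p = 0.103, and 0.0390 with the block), all log2 changes with SE from limma. The 2 within-genotype contrasts had 2 libraries on each side.

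The genotype comparisons asked whether these genes differed between knockout and wild-type cells. Under AdDlx3 the virus supplied Dlx3 to both genotypes, so only the comparison under AdGFP set cells without supplied Dlx3 side by side. None of the 6 genes tested passed in knockout against wild-type cells over both viruses, under AdGFP or under AdDlx3, nor did any in the interaction of genotype and virus. In each of these comparisons limma called 0 of 12090 genes (0.0%), with 194, 121, 45 and 40 genes at an unadjusted p under 0.05 and none of the 6 among them. Over both viruses the log2 changes of the 6 genes lay between -0.18 (Rarg) and 0.35 (Cyp26b1). Under AdGFP they lay between -0.27 (Rarg) and 0.43 (Dhrs9), and under AdDlx3 between -0.20 (Rdh10) and 0.56 (Cyp26b1). The interaction, the AdDlx3 response in knockout minus that in wild-type cells, lay between -0.44 (Dhrs9) and 0.42 (Cyp26b1). With 2 libraries in a group and no replicate block, standard errors under AdGFP ran up to 0.97 log2 units (Cyp26b1). Dlx3 itself changed by -1.02 ± 0.50 in knockout against wild-type cells under AdGFP (limma adjusted p = 1.0).

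Other genes of the pathway were read from lists by role. Of 14 genes of retinol uptake, storage and carriage, 13 were in the table and 5 were tested: 1 rose, 0 fell, and the median log2 change was -0.04, beside 0.22 for all genes, of which 23.4% rose and 5.74% fell. Lipe, a lipase that frees retinol from its stored esters, rose by 0.88 ± 0.16 (SE; limma adjusted p = 0.00658), at 3.28 to 4.84 RPKM under AdDlx3 and 1.64 to 2.22 RPKM under AdGFP. The intracellular retinol carrier Rbp2 (-1.25 ± 0.83, adjusted p = 0.284), the lipase Lpl (-0.51 ± 0.49, adjusted p = 0.453) and Dgat1 (-0.04 ± 0.14, adjusted p = 0.837), an acyltransferase that can esterify retinol, did not pass. With the replicate block 2 genes of this list fell, Rbp2 and Lpl, and Lipe rose, beside 10.9% of all genes falling and 38.0% rising in that fit.

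Of 23 other retinoid enzymes, 13 were tested: 2 rose, 4 fell, and the median log2 change was -0.39, beside 23.4% of all genes rising and 5.74% falling. Aldh1a3, a retinal dehydrogenase that makes retinoic acid, stood at 0.315 and 0.168 RPKM in knockout and 0.591 and 0.159 RPKM in wild-type AdDlx3 libraries, against 2.87 and 0.913 RPKM in knockout and 3.57 and 1.21 RPKM in wild-type AdGFP libraries. It was lower in every AdDlx3 library, with a log2 change of -1.60 ± 0.37 (SE; limma adjusted p = 0.0153, and 0.0391 with no filter on low values). Only 3 AdGFP libraries reached 1 RPKM, so it entered the test through the group in which it was high. Rdh11 and Rdh12, both known as retinal reductases, fell by 0.87 ± 0.15 and by 2.30 ± 0.62 on the log2 scale (limma adjusted p = 0.00519 and 0.0288). Cyp2s1, a skin cytochrome P450 reported in human cells to act on retinoic acid, fell by 1.74 ± 0.53 (adjusted p = 0.0404). Rdh5 rose by 0.62 ± 0.18 (adjusted p = 0.0359) and Rdh13 by 0.36 ± 0.10 (adjusted p = 0.0272). Both of these rises were lost after scaling, while the 4 falls were called there too. Rdh5 stood at 1.44 to 1.93 RPKM under AdDlx3, and among AdGFP libraries only the wild-type one of batch B (1.31 RPKM) reached 1 RPKM. It thus entered the test through the group in which it was high. With no filter on low values Rdh12 (adjusted p = 0.0704), Cyp2s1 (0.0927) and Rdh5 (0.0641) did not pass. Without each library in turn, Rdh11 and Aldh1a3 kept their calls in all 8 fits, Rdh12, Cyp2s1 and Rdh5 in 3 each and Rdh13 in 1. With the replicate block 3 rose and 7 fell, the further genes being Dhrs3 upward and Adh7, Sdr16c5 and Sdr16c6 downward, beside 38.0% of all genes rising and 10.9% falling.

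**Figure D3:**
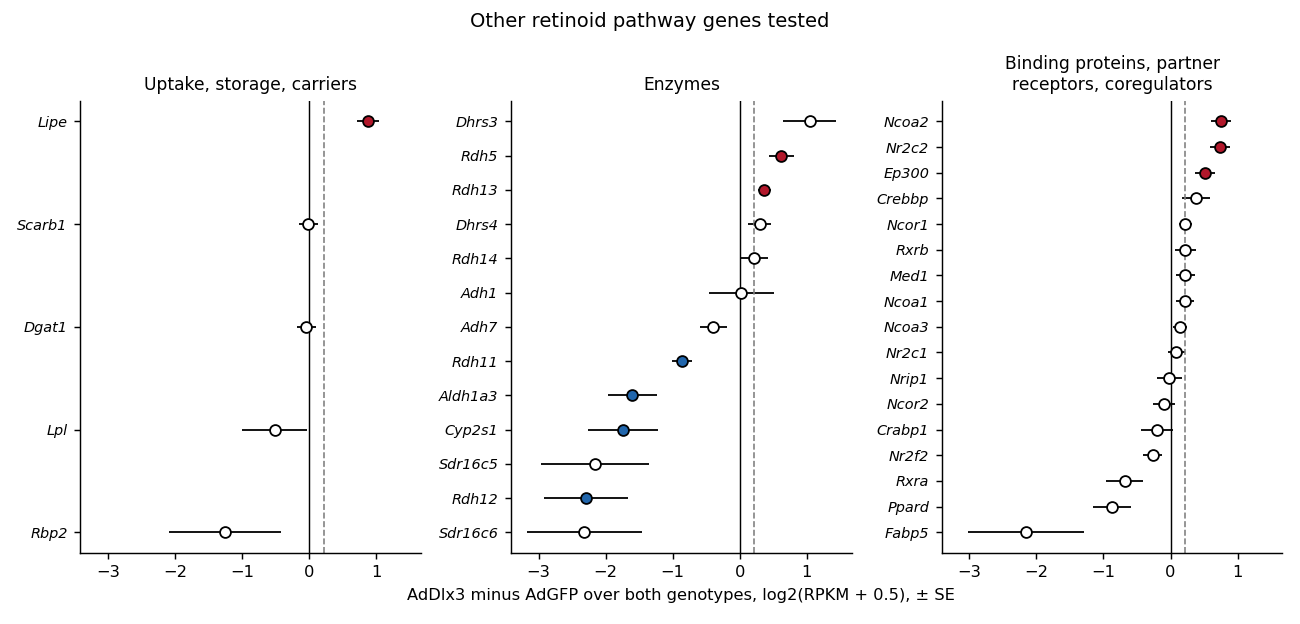
Log2 change with AdDlx3 against AdGFP over both genotypes, with SE, of the other retinoid pathway genes tested, by list; filled red points rose and filled blue points fell at a limma adjusted p under 0.05, open points did not pass, and the dashed line is the median of all genes tested. The filled blue points are Aldh1a3, Rdh11, Rdh12 and Cyp2s1, and the filled red ones are Lipe, Rdh5, Rdh13, Ncoa2, Nr2c2 and Ep300.

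The remaining retinal dehydrogenases and the third Cyp26 gene were below the filter and were read after their values were seen. Aldh1a2 stood at 0.365 and 0.715 RPKM in knockout and 0.108 and 1.41 RPKM in wild-type AdDlx3 libraries, against 0.0123 to 0.0433 RPKM in AdGFP libraries. Aldh1a1 stood at 0.123 to 0.549 RPKM under AdDlx3 and 0.00521 to 0.0371 RPKM under AdGFP. Both were higher in every AdDlx3 library, the opposite order to Aldh1a3. Within a library Aldh1a2 was 0.183 to 8.84 times the level of Aldh1a3 under AdDlx3 and 0.00346 to 0.0358 times under AdGFP. Cyp26c1 stood at 0.0809 to 0.128 RPKM under AdDlx3 and at 0 to 0.00900 RPKM under AdGFP, again without overlap. In all, 20 genes of the pathway lists were below the filter and above 0 in some library: 6 were higher in every AdDlx3 library and 0 lower, beside 14.8% higher and 2.14% lower among all 11175 such genes. The others of the 6 were Lrat, Rxrg and Nr2f1.

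**Figure D4:**
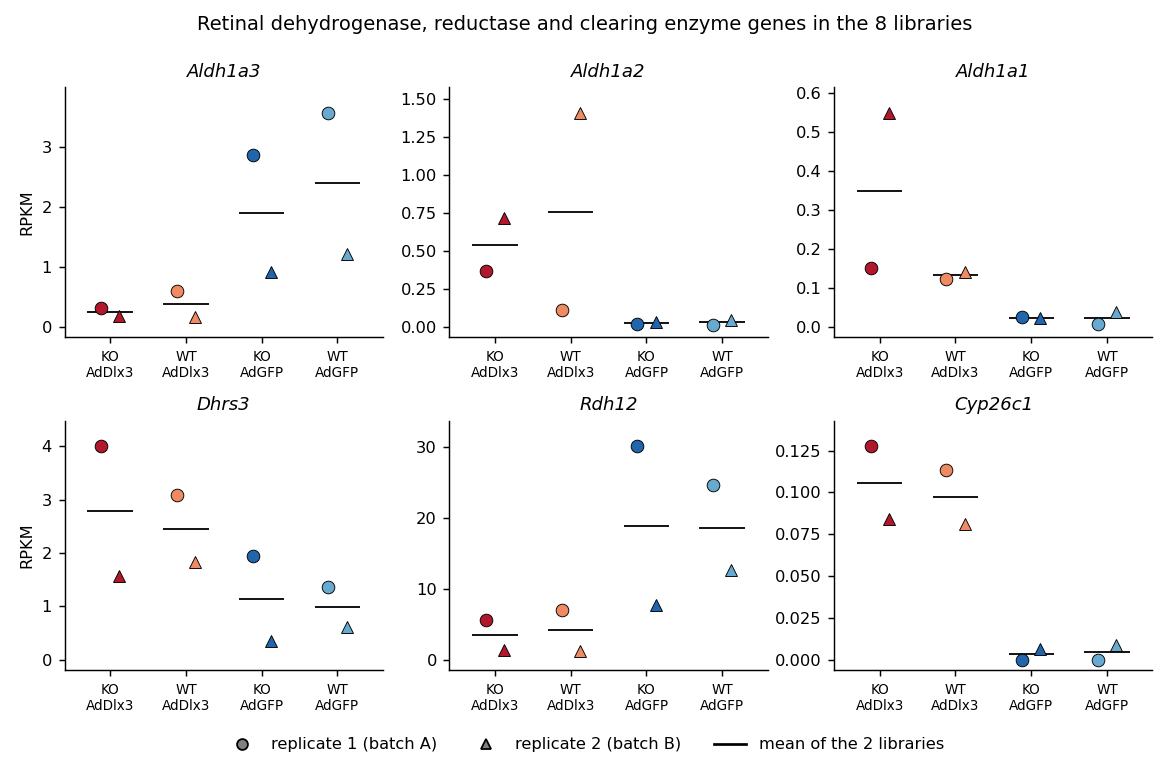
RPKM of 3 retinal dehydrogenase genes, of Dhrs3 and Rdh12 and of Cyp26c1 in the 8 libraries, by group; circles are batch A, triangles batch B and lines the mean of the 2 libraries. Aldh1a3 and Rdh12 were lower and Aldh1a2, Aldh1a1 and Cyp26c1 higher in all 4 AdDlx3 than in all 4 AdGFP libraries, and Dhrs3 overlapped.

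Among 19 binding proteins, partner receptors and coregulators, 17 were tested: 3 rose, 0 fell, and the median log2 change was 0.14, beside 23.4% of all genes rising and 5.74% falling. The coactivators Ncoa2 (0.75 ± 0.15, limma adjusted p = 0.00931) and Ep300 (0.51 ± 0.15, adjusted p = 0.0348) and the orphan receptor Nr2c2 (0.73 ± 0.15, adjusted p = 0.00936) rose, and after scaling none of the 3 was called, nor was Ep300 with no filter on low values (adjusted p = 0.0528). In the scaled fit Rxra, Ppard and Nr2f2 fell, beside 10.4% of all genes. Without each library in turn, Ncoa2 and Nr2c2 kept their calls in all 8 fits and Ep300 in 2. With the replicate block 4 rose and 3 fell, the falls being Rxra, Ppard and Fabp5, beside 38.0% of all genes rising and 10.9% falling. Without scaling or block, the retinoid X receptor Rxra changed by -0.68 ± 0.28 (adjusted p = 0.0971). Ppard, the receptor to which Fabp5 is known to carry retinoic acid, changed by -0.87 ± 0.29 (adjusted p = 0.0549) and Fabp5 by -2.16 ± 0.86 (adjusted p = 0.0933). Rxrb changed by 0.22 ± 0.15 (adjusted p = 0.301), and by -0.01 after scaling, and Rxra was 1.09 to 1.69 times its level under AdDlx3 and 2.25 to 3.44 times under AdGFP.

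Genes known to respond to retinoic acid were listed separately. Of 9 genes known to be induced by it, 3 were tested and none passed, beside 23.4% of all genes rising and 5.74% falling. The simple-epithelial keratin Krt19 changed by 1.73 ± 0.64 (SE; limma adjusted p = 0.0754) and the retinal reductase Dhrs3 by 1.04 ± 0.39 (adjusted p = 0.0802), and both were called upward with the replicate block. The corepressor Nrip1 changed by -0.02 ± 0.19 (adjusted p = 0.954). Below the filter, Cd38 and Rarres1 were higher and Krt4 lower in every AdDlx3 library, while Tgm2, Krt13 and Rarres2 overlapped. Of all 11175 genes below the filter and above 0 in some library, 14.8% were higher and 2.14% lower in every AdDlx3 library. Krt4 lay close to 0, at 0.00591 to 0.145 RPKM over the 8 libraries. The log2 differences, AdDlx3 minus AdGFP, were 0.46 for Cd38, 0.32 for Rarres1, -0.02 for Rarres2, -0.09 for Krt13, -0.14 for Krt4 and -0.98 for Tgm2. Over all 9 genes 4 differences were positive and 5 negative, with a median of -0.02. Of 7 keratinocyte differentiation genes known to be lowered by retinoic acid, 6 were in the table and 5 were tested: 1 rose, 2 fell, and the median log2 change was -1.29, beside 23.4% of all genes rising and 5.74% falling. Lor, which encodes a protein of the cornified envelope, rose by 2.75 ± 0.23 (adjusted p = 0.000381), at 31.5 to 63.5 RPKM under AdDlx3 and 3.38 to 9.65 RPKM under AdGFP. Ivl, another envelope protein, fell by 1.29 ± 0.27 (adjusted p = 0.0112, and 0.0260 with no filter). It reached 1 RPKM in the 4 AdGFP libraries and in no AdDlx3 library. Tgm1, the enzyme that cross-links the envelope, fell by 1.46 ± 0.47 (adjusted p = 0.0498), a call kept in 3 of the 8 fits without a library and lost with no filter (0.107). The suprabasal keratins Krt10 (1.61 ± 1.06, adjusted p = 0.279) and Krt1 (-2.30 ± 1.59, adjusted p = 0.301) did not pass. With the replicate block Lor and Krt10 rose and Ivl, Tgm1 and Krt1 fell, beside 38.0% of all genes rising and 10.9% falling. Called genes of this list thus moved in both directions.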

How the data were processed

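The authors deposited RPKM values of 26202 genes in 8 libraries, a sample sheet with alignments and batch letters, and a table of their own comparisons. Per the file headers, that table holds log2 group means, p-values and q-values, the ratio of each contrast and a signed fold change, which was treated as a score. Per the submitters' processing notes, bcl2fastq 2.20.0.422, TopHat2 2.1.1 and Partek were used with mm10. The annotation, the counting settings and whether strand was used were not stated there. Per the labels' protocols, libraries were made with a NEBNext Ultra II kit.

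The deposited RPKM values gave no whole reads, so no count test was run. They were changed to log2(RPKM + 0.5), which understates changes of low genes. A gene was kept where 2 or more libraries reached 1 RPKM (12090 genes), and limma 3.58.1 in R 4.3.3 with an intensity trend was fitted, with genotype and virus as additive terms for comparisons over both, and otherwise with 4 groups (4 residual and 2.875 prior degrees of freedom). Every adjusted p of a gene is from limma with Benjamini-Hochberg adjustment over all genes tested. Stra6, Cyp26a1 and Rarb, which were below that filter, had an exact two-sided permutation test, without regard to genotype or batch. Other genes below it were not given that test. The fit was tested on simulated data. Positions are from GENCODE M21 (GRCm38).

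Groups and replicate numbers came from the labels, which do not say whether replicates came from separate pups or cultures, so a p-value reflects only how far these libraries spread, which may be technical variation. Replicate numbers pair the samples, because the sample sheet gives each number 1 batch; deviations from group means correlated at 0.351 to 0.876 over the 6 pairs of groups. Alternatives were the replicate block, other pseudocounts (0.1 and 1), no filter, median-of-ratios scaling, no intensity trend and each library left out. The test between batches and the fit with a response by batch were added after seeing the data.

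Some list genes are not reported here. The 9 genes and the lists were chosen with earlier results of these data known. The named genes were all 9, Dlx3, up to 4 genes of each list with the smallest adjusted p, and the 5 genes with the highest Pearson r to the called gene of the 9 with the largest fall, leaving out predicted gene models. Cyp26c1, Lrat, Aldh1a1, Aldh1a2, Rdh5, Cyp2s1, Sdr16c5, Sdr16c6, Adh7, Fabp5, Rxra, Rxrb, Rxrg, Nr2f1, Nr2f2, Crabp1, Krt1, Krt4, Krt5, Krt13, Krt14, Trp63, Col17a1, Itga6, Itgb4, Lamb3, Dsg3, Tgm2, Rarres1, Rarres2 and Cd38 were named after their values were seen.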

Additional observations from a re-analysis of the deposited data

How the results depend on the processing

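Of 819 values of single genes under other settings, 696 kept their direction and their side of the threshold, 53 lost a call, 39 gained one and 31 turned direction, none of these called both before and after. Over both genotypes the number of the 6 genes called was 2, 3 with the replicate block and 4 with the virus-by-batch term. In the same fits 3525, 5908 and 7452 of all 12090 genes were called. With no filter, Cyp26a1 was called too, beside 3934 of the 23265 genes above 0 in at least 1 library. In knockout cells the number was 1 (beside 643 of all genes), 2 with the replicate block, 0 with no filter and 0 to 1 without each library. In wild-type cells it was 0 (beside 317 of all genes), and 2 with the replicate block. For the response of batch B minus batch A it was 1 (beside 1692 of all genes), 0 with no filter and 1 to 2 without each library. The numbers of all genes called in the other fits are given at the end of this section. Of the 3 genes below the filter 1, Cyp26a1, had an unadjusted permutation p under 0.05. With any 1 library left out 0 did, since the exact permutation test of 4 against 3 cannot go below p = 0.0571. Among all 11175 genes below the filter and above 0 in some library, 14.8% were higher and 2.14% lower in every AdDlx3 library. The block changed no other call in these comparisons of the 9 genes than those given beside the results.

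After scaling, the log2 change turned to -0.040, -0.071 and -0.0084 for Rdh10 (over both genotypes, in knockout and in wild-type cells), -0.0096 for Rxrb, -0.036 for Rara in wild-type cells and -0.15 for Cyp26b1 in knockout cells. With a pseudocount of 0.1, Crabp2 turned to -0.14 in the difference between batches. Without each library in turn, the AdDlx3 change of Cyp26b1 ran from -0.67 to 0.46 over both genotypes, -0.66 to 0.79 in knockout and -1.77 to 1.05 in wild-type cells. It ran from -0.13 to 0.070 for Dgat1, -0.14 to 0.11 for Nrip1, -0.0021 to 0.38 for Rara in wild-type and -0.99 to 0.063 for Rarg in knockout cells. The knockout change over both viruses ran from -0.56 to 0.30 for Crabp2, -0.26 to 0.87 for Cyp26b1 and -0.41 to 0.012 for Rarg, and the batch difference of Crabp2 from -0.27 to 0.61. The cause of these turns was not tested.

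The number of all genes called moved by over 1.5 times in several fits. Over both genotypes it was 3525, against 5908 with the block, 7452 with the virus-by-batch term and 2089 to 3307 without each library. In knockout cells it was 643, against 363 with no filter, 387 scaled, 2976 with the block and 4 to 733 without each library. In wild-type cells it was 317, against 128, 170, 2657 and 0 to 489 in the same order. For the batch difference it was 1692, against 241 with no filter and 532 to 2465 without each library. With no filter, 1, 4 and 4 genes were called for knockout under AdGFP, knockout under AdDlx3 and the interaction. With 2 libraries in a group and RPKM only, the depth behind the levels under 1 RPKM (Stra6, Rarb, Cyp26a1) is unknown beyond the alignments, and no limit of detection was set.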

Other observations

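The authors' deposited table gave signed fold changes for the same contrasts, on its own scale with a smaller constant added before logs. For Crabp2 the authors' deposited table listed -11.6 in knockout cells (authors' q = 0.180) and -10.6 in wild-type cells (q = 0.186). For Dhrs9 the authors' deposited table listed -4.47 in knockout cells (q = 0.0998) and -3.21 in wild-type cells (q = 0.144). For Cyp26a1 the authors' deposited table listed 3.73 in knockout cells (q = 0.0840) and 4.52 in wild-type cells (q = 0.0790), and for Cyp26b1 1.05 in knockout cells (q = 0.670) and -1.36 in wild-type cells (q = 0.594). A negative value there means a lower level under AdDlx3.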
